A study of Gallus gallus with 6 samples.

Results

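Leukocytes carry sets of surface proteins, numbered as clusters of differentiation (CD), by which their lineage and stage are recognised. The genes described here are 42 that carried such a name, or the name of a close relative, among the 8469 genes that the authors listed as differing between bursal cells of embryonic day 16 (ED16) and embryonic day 19 (ED19), out of 19219 genes in the count table. They were taken by symbol: CD followed by a number, PTPRC, THY1, the LY and TSPAN families, BLB1, TAP1, TAP2 and CIITA, leaving out CD14 and LY96. Of the listed genes 7093 carried a symbol, and a gene that was not listed has no name in the files, so surface antigens that did not differ are not analysed here. The values that chose the members were the counts of these same 6 libraries, so the differences below are a description, and where a call of a member is counted it supports nothing.

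The cells came from the bursa of Fabricius of Hy-Line W-36 commercial layer embryos at ED16 or ED19, with no treatment. Each of the 3 libraries of a stage was made from a pool of many bursas, dispersed to single cells and passed over a Histopaque density gradient to isolate lymphocytes and remove dead cells. No sort for a surface marker was stated, so what remained beside B cells was not fixed by a gate. Polyadenylated RNA was sequenced, and the libraries are named ED16_1, ED16_2, ED16_3, ED19_4, ED19_5 and ED19_6.

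The bursa is the organ in which B cells of birds multiply and diversify their immunoglobulin genes inside follicles, before they leave for the rest of the body around hatching. B cells take up antigen through their receptor and show its peptides on class II molecules of the major histocompatibility complex (MHC), while class I molecules show peptides made inside the cell. Other antigens of the group belong to T cells, natural killer (NK) cells, blood cell progenitors, endothelium or epithelium, and the tetraspanins organise membrane proteins into patches in many kinds of cell. The name of the group holds for most members but not for all: TAP1 and TAP2 sit in the endoplasmic reticulum, CIITA is a regulator of transcription, and LY86 is a secreted partner of CD180.

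Library totals ranged from 27087661 to 34614652 counts in genes. ED19_6 stood apart from ED19_4 and ED19_5. Without it, 5793 genes were higher at ED16 and 5156 at ED19 at an adjusted p below 0.05 by edgeR, against 4953 and 4287 with all 6 libraries. Of 14 B-cell markers, 4 had a name in the files (BLNK, SYK, BACH2 and TNFRSF13C), all higher at ED19, and their summed level was 145 to 170 RPKM (reads per kilobase of gene, scaled to the counts of the library) at ED16 and 467, 480 and 326 at ED19. These 4 had a name because the authors listed them as differing, so they do not check the B-cell label. Markers of every cell type had a name only where the authors listed them, so counts of their direction support nothing. Markers of erythrocytes (5 named of 9) summed to 3876 to 5677 RPKM at ED16 and 153 to 268 at ED19, and markers of epithelium (9 of 10) to 136 to 303 and 5.44 to 7.15. In bulk RNA, fewer cells of a type and less RNA per cell cannot be told apart.

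Most of the group was higher at ED16. Of the 42 genes, 40 had enough counts for the fit across all genes, CD34 and CD9 falling under its filter, and of the 40 there were 27 higher at ED16 and 13 higher at ED19. Fold changes are given as log2 of ED16 over ED19 with their standard error (SE), so a positive value means a higher level at ED16. The median log2 fold change of the 40 was 1.51, beside 0.05 over all 13923 genes tested and 0.96 over the tested genes that the authors listed. On the ED16 side lay 67.5% of the 40, beside 51.4% of all genes tested and 57.1% of the listed genes that were tested. The change was at least 2-fold in 85.0% of the 40, in 47.7% of all genes tested and in 78.8% of the listed genes. By edgeR 39 of the 40 had an adjusted p below 0.05, 26 higher at ED16 and 13 at ED19, beside 66.4% of all genes tested in either direction, 35.6% higher at ED16 and 30.8% at ED19. After scaling for library size, the counts of the stages did not overlap in 39 of the 40, beside 71.5% of all genes tested, 38.4% in the direction of ED16 and 33.1% in that of ED19. Since the members were listed for this contrast, nothing is read from these shares.

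**Figure D1:**
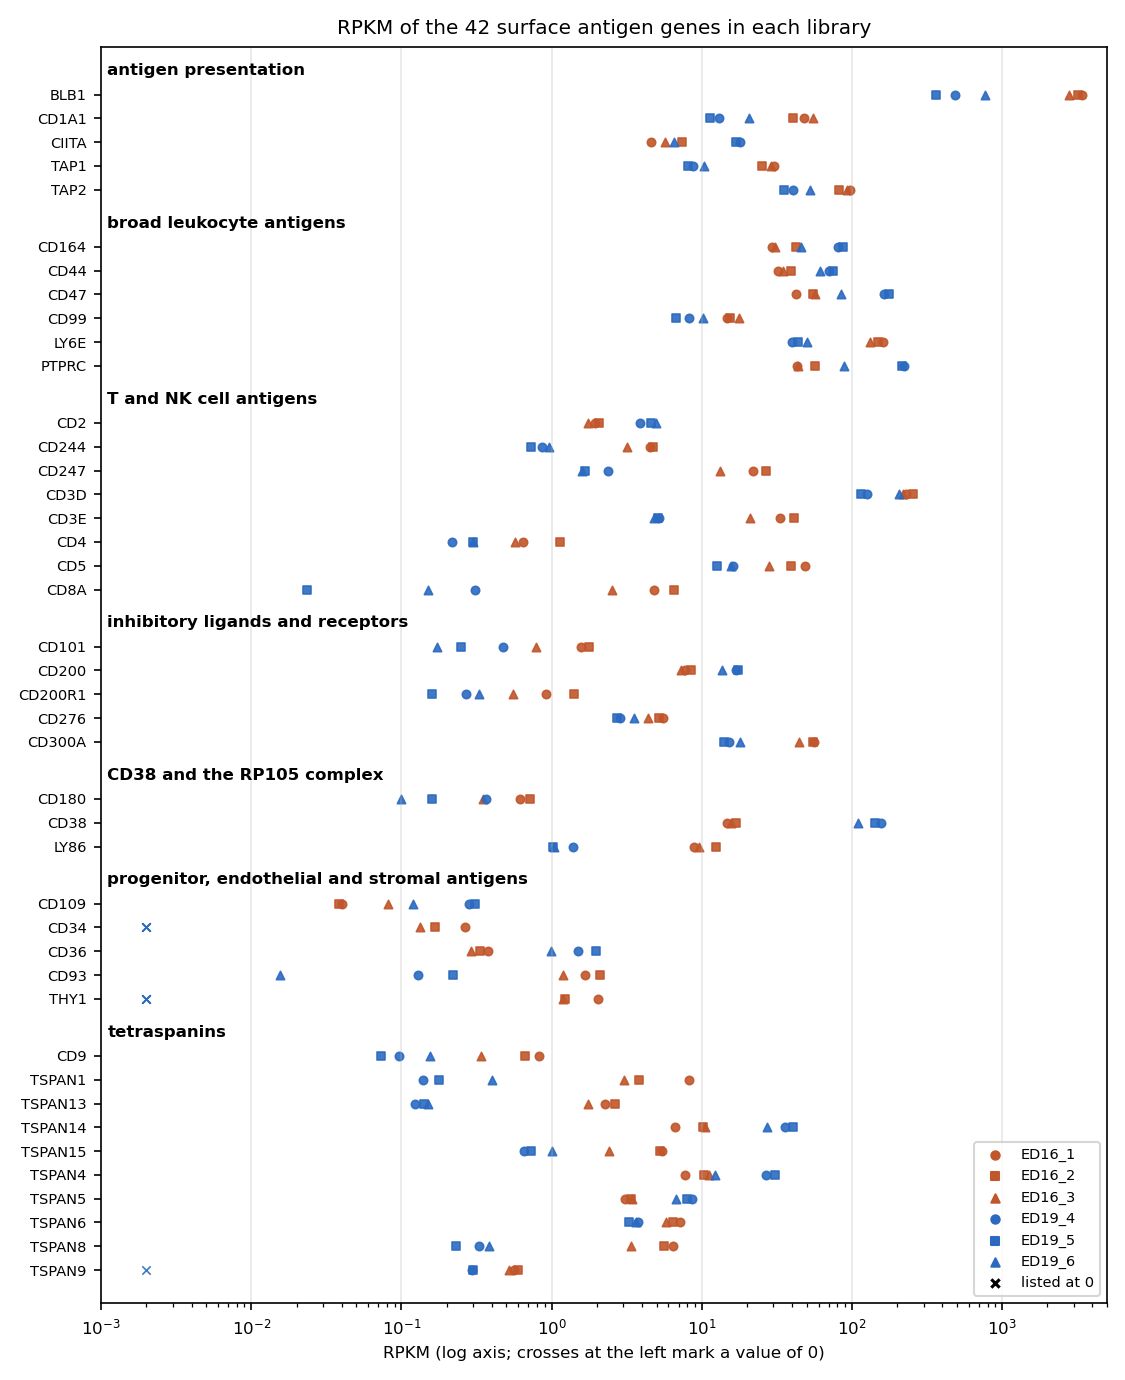
RPKM of each of the 42 genes in each of the 6 libraries on a log axis, grouped by role, with ED16 in orange and ED19 in blue and a cross for a value of 0. BLB1 is the highest of the 42 genes in every library, and the stages overlap in CIITA and CD180.

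Some members near the edge of the list had few counts. CD34 had 11, 6 and 5 counts in the ED16 libraries and 0, 0 and 0 in those of ED19. CD9 had 27, 19 and 10 counts in the ED16 libraries and 3, 2 and 4 in those of ED19. TSPAN9, the member that did not pass the test of edgeR, had 38, 35 and 32 counts in the ED16 libraries and 19, 17 and 0 in those of ED19. Each of these was higher at ED16 in every library, but TSPAN9 rests on few counts and on the 0 in ED19_6: its log2 fold change was 1.55 (SE 0.70) with all libraries and 0.98 without ED19_6, where it did pass. CD3D lay near the threshold of edgeR with high counts. The genes just outside the list have no symbol in the files.

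The genes that show antigen and the gene that switches some of them on differed in direction. BLB1, a class II beta chain, TAP1 and TAP2, the subunits of the transporter that carries peptides to class I molecules, and CD1A1, a CD1 molecule that shows lipids, were all higher at ED16. CIITA, the transactivator that class II genes need in mammals, was higher at ED19. BLB1 had 3415, 3213 and 2797 RPKM at ED16 and 485, 361 and 773 RPKM at ED19. The lowest ED16 library was thus 3.62 times the highest ED19 library, and the log2 fold change was 2.55 (SE 0.33), a 5.87-fold difference. In the order of all genes by mean RPKM, BLB1 was number 38 at ED16 and 153 at ED19. Leaving out ED19_6, the highest of the ED19 libraries for this gene, gave 2.97, and a correction for gene length gave 1.85. BLB1 has a close paralogue, BLB2, and how reads shared by them were assigned was not stated, so its level is uncertain.

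The transporter genes were lower in level than BLB1. TAP1 had 30.3, 25.1 and 29.0 RPKM at ED16 and 8.73, 8.08 and 10.4 RPKM at ED19. TAP2 had 97.3, 82.6 and 92.4 RPKM at ED16 and 40.8, 35.2 and 52.6 RPKM at ED19. Neither overlapped between the stages, with log2 fold changes of 1.67 (SE 0.19) for TAP1 and 1.11 (SE 0.21) for TAP2. With the correction for gene length TAP1 was at 1.95, above the 1.85 of BLB1. Within a library, TAP1 stood at 0.311, 0.304 and 0.314 of the TAP2 level at ED16 and at 0.214, 0.230 and 0.197 at ED19, so the pair was tightly tied within a stage and stood at another ratio in the other stage. CD1A1 had 47.8, 40.5 and 55.0 RPKM at ED16 and 13.1, 11.4 and 20.5 RPKM at ED19, a log2 fold change of 1.70 (SE 0.29). For all 4 genes ED19_6 was the highest ED19 library.

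CIITA showed the reverse order and depended on that library. It had 4.61, 7.37 and 5.70 RPKM at ED16 and 17.9, 17.0 and 6.51 RPKM at ED19. ED19_4 and ED19_5 lay well above ED16, whereas ED19_6 lay inside the ED16 range, and the log2 fold change was -1.15 (SE 0.33) with all libraries and -1.50 without ED19_6. The level of BLB1 over that of CIITA was 740.4, 436 and 491 at ED16, against 27.0, 21.3 and 119 at ED19. ED19_6 was the highest ED19 library in BLB1 and the lowest in CIITA, and its summed B-cell markers were the lowest of ED19. The part of that library's composition in these values was not tested.

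**Figure D2:**
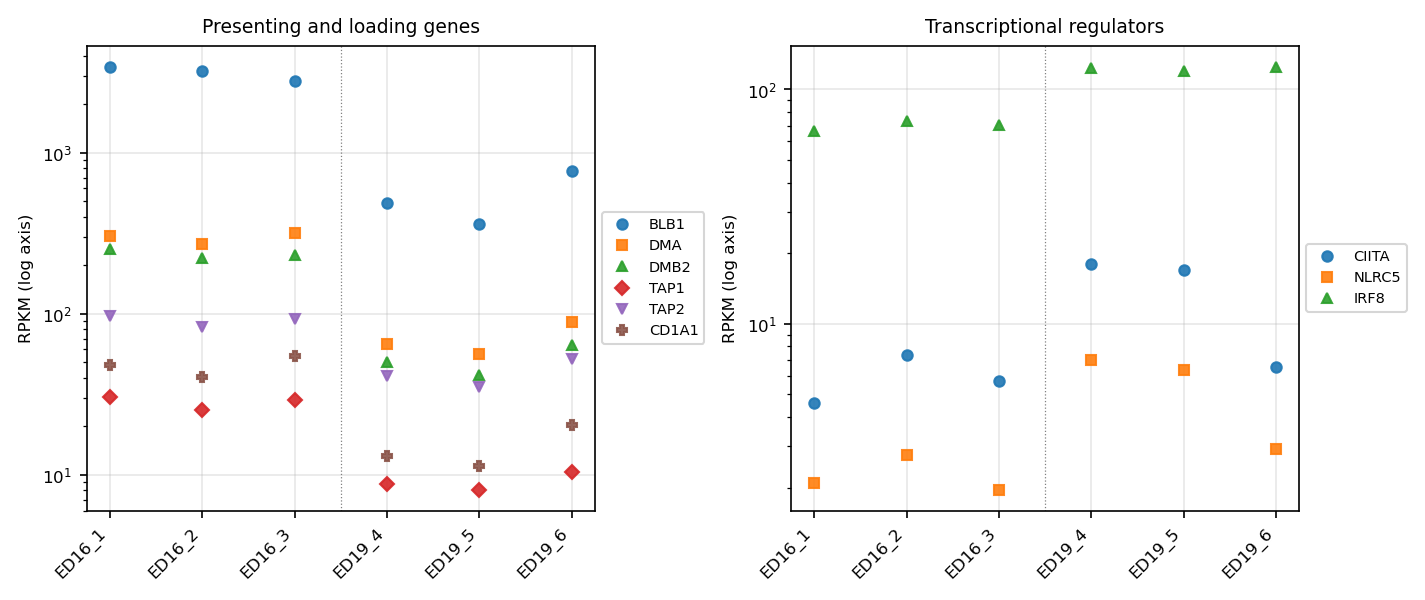
RPKM in each library on a log axis, for presenting and loading genes on the left and regulators of transcription on the right. The presenting genes are lower in all 3 ED19 libraries, and CIITA and NLRC5 are high in ED19_4 and ED19_5 and close to the ED16 levels in ED19_6.

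Other genes of antigen processing and presentation were taken from a list of 45 symbols, of which 19 had a name in the files. A name again came only with the authors' listing, so this is an account of the pathway and not independent of the choice. All 19 passed the edgeR test, 10 on the ED16 side and 9 on the ED19 side, beside 66.4% of all genes tested (35.6% and 30.8% by direction), with a median log2 fold change of 0.64. Higher at ED16 were DMA and DMB2, the chains of the molecule that exchanges peptides on class II, the lectin-like MHC genes BLEC1 and BLEC2, the proteases CTSB and CTSL2, the chaperone CALR, the transcription factor subunit NFYC, and BRD2 and KIFC1, which lie in or beside the MHC. DMA fell from 297 ± 23.7 (SD, n = 3) RPKM to 70.0 ± 17.0 (SD, n = 3) (log2 fold change 2.11, SE 0.24). DMB2 fell from 235 ± 14.6 (SD, n = 3) RPKM to 51.8 ± 11.4 (SD, n = 3) (log2 fold change 2.21, SE 0.22). Both genes differed by somewhat less than BLB1. CALR changed sign and was no longer past the threshold with the correction for gene length (log2 fold change -0.17, edgeR adjusted p = 0.34).

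Among those higher at ED19 were the regulators NLRC5, IRF8, CREB1 and NFYA, the ubiquitin ligases MARCH1 and MARCH8, which remove class II from the surface in mammals, the trimming peptidase ERAP1 and the chaperone HSP90AA1. MARCH1 had 0.861, 1.31 and 1.00 RPKM at ED16 and 3.86, 4.74 and 1.15 RPKM at ED19, so its stages overlapped. NLRC5, which drives class I genes in mammals, had 2.09, 2.75 and 1.96 RPKM at ED16 and 7.01, 6.35 and 2.93 RPKM at ED19. Its ED19_6 value was close to ED16, as it was for CIITA. IRF8 had 66.7, 73.4 and 70.7 RPKM at ED16 and 124, 120.4 and 125 RPKM at ED19, and here the 3 ED19 libraries lay together.

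Class I was followed through BFIV21, a heavy chain gene that the name rule did not take. It had 623, 499.7 and 490.2 RPKM at ED16 and 108, 119 and 137 RPKM at ED19, with a log2 fold change of 2.18 (SE 0.20). A further CD1 gene, CD1.2, had 44.6, 42.2 and 36.8 RPKM at ED16 and 15.3, 14.8 and 10.9 RPKM at ED19. In these genes ED19_6 did not lie on 1 side: it was the highest ED19 library in BFIV21 and the lowest in CD1.2. Counting every listed gene whose InterPro annotation names MHC class I or II, 12 outside the group could be fitted and all 12 were higher at ED16, with a median log2 fold change of 1.67, beside 57.1% higher at ED16 among all tested genes that the authors listed. This lean was not particular to MHC genes. Outside the group, 191 of 222 fitted genes with an immunoglobulin annotation and 29 of 31 with a C-type lectin fold were also higher at ED16.

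Antigens carried by leukocytes at large were split. PTPRC, the CD45 tyrosine phosphatase that antigen receptor signalling needs, had 42.7, 56.6 and 43.9 RPKM at ED16 and 223, 216 and 88.5 RPKM at ED19. Its stages did not overlap, with a log2 fold change of -1.80 (SE 0.29), or 3.49-fold higher at ED19. ED19_6 reached less than the other ED19 libraries, and without it the value was -2.13. CD47, the ligand by which cells hold off phagocytes in mammals, had 42.4, 54.9 and 56.9 RPKM at ED16 and 163, 177 and 84.3 RPKM at ED19, a log2 fold change of -1.39 (SE 0.24). CD164, a sialomucin, had 29.4, 42.3 and 30.6 RPKM at ED16 and 81.2, 87.6 and 45.9 RPKM at ED19, 2.01-fold higher at ED19 (SE 0.22 on the log2 scale), and in it ED19_6 was only 1.09 times ED16_2. CD44, the hyaluronan receptor, had 32.2, 39.4 and 34.9 RPKM at ED16 and 69.9, 75.2 and 60.9 RPKM at ED19, with a log2 fold change of -0.90 (SE 0.14). That value was -0.59 with the correction for gene length and -0.69 with upper-quartile scaling. The ED19 libraries of CD44 agreed most closely of the 4, with a coefficient of variation of 5.35% after scaling. The level of CD44 over that of PTPRC was 0.754, 0.695 and 0.795 at ED16, against 0.314, 0.349 and 0.689 at ED19, so ED19_6 kept the ED16 balance of the pair.

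LY6E and CD99 went the other way. LY6E, a small lipid-anchored protein, had 162, 148 and 131 RPKM at ED16 and 40.1, 43.7 and 50.6 RPKM at ED19, a log2 fold change of 1.75 (SE 0.18). CD99, annotated in the files as a CD99 antigen-like protein, had 14.8, 15.3 and 17.7 RPKM at ED16 and 8.19, 6.76 and 10.1 RPKM at ED19, and its log2 fold change was 0.96 (SE 0.22). Both were free of overlap between the stages. LY6E was the third most abundant of the 42 at ED16 and the eighth at ED19, while PTPRC passed from the eighth to the second place.

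The largest shift towards ED19 belonged to CD38, an ectoenzyme that makes and cleaves cyclic ADP-ribose and marks stages of lymphocyte activation in mammals. It had 517, 518 and 498 counts in the ED16 libraries and 5191, 4188 and 3034 in those of ED19, which correspond to 14.7, 17.0 and 15.8 RPKM at ED16 and 155, 143 and 110.5 RPKM at ED19. The ED16 libraries were within a narrow band, and the lowest ED19 library was 6.50 times the highest ED16 library. The log2 fold change was -3.05 (SE 0.15), 8.27-fold, and it was between -3.17 and -3.00 when each library was left out in turn. It moved further with the processing, to -3.56 with the correction for gene length and -2.84 with upper-quartile scaling. By mean RPKM CD38 was number 4593 of all genes at ED16 and 699 at ED19, and among the 42 it moved from place 16 to place 5.

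The RP105 complex, which modulates responses to bacterial products on mammalian B cells and myeloid cells, was higher at ED16. LY86, the secreted partner (MD-1), had 8.94, 12.4 and 9.54 RPKM at ED16 and 1.39, 1.02 and 1.04 RPKM at ED19. Its log2 fold change was 3.20 (SE 0.21), or 9.22-fold, with the stages far apart. CD180, the receptor chain, had 0.613, 0.719 and 0.347 RPKM at ED16 and 0.363, 0.160 and 0.0997 RPKM at ED19. ED16_3 fell just under ED19_4 in RPKM, so the stages of CD180 touched, and the log2 fold change of 1.47 (SE 0.48) rests on low counts and was 2.08 without ED19_4. LY86 was 14.6, 17.2 and 27.5 times the CD180 level at ED16 and 3.84, 6.35 and 10.4 times at ED19. Markers of granulocytes and macrophages (8 named of 12) were higher at ED16 in 7 and at ED19 in 1, and their summed level was 278 to 316 RPKM at ED16 and 281 to 290 at ED19. That sum was carried by SPI1, a transcription factor that B cells share with myeloid cells. Without it, a choice made after its values were seen, the 7 others summed to 138 to 171 RPKM at ED16 and 11.0 to 17.2 at ED19. Their part in the values of LY86 and CD180 was not tested.

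Of the 8 antigens known from T and NK cells, 7 were higher at ED16. CD3E, CD3D and CD247 are chains of the CD3 complex that signals for the T-cell receptor, CD3D standing in the chicken for both the gamma and the delta chain of mammals. CD3E had 33.4, 40.9 and 21.0 RPKM at ED16 and 5.22, 5.13 and 4.82 RPKM at ED19, a log2 fold change of 2.69 (SE 0.23). CD247, the zeta chain, had 22.1, 26.6 and 13.2 RPKM at ED16 and 2.37, 1.67 and 1.60 RPKM at ED19, a log2 fold change of 3.50 (SE 0.29), the largest towards ED16 among members with a mean log2 CPM of at least 3. Both were clear of overlap, and in both ED16_3 was the lowest of its stage by a wide gap.

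CD3D behaved unlike its partners. It had 229, 254 and 219 RPKM at ED16 and 126, 115 and 205 RPKM at ED19. ED19_6 lay just under ED16, and the log2 fold change was 0.67 (SE 0.26), the smallest in size of the 40. It was 1.03 without ED19_6 and 0.05 with the correction for gene length, so the size of the difference rests on how short genes are treated. CD3D stood at 6.86, 6.22 and 10.4 times the CD3E level at ED16 and at 24.1, 22.4 and 42.5 times at ED19. The ratio of CD3E to CD247 was steadier, 1.51, 1.53 and 1.59 at ED16 and 2.20, 3.08 and 3.02 at ED19. In the RefSeq annotation of GRCg7b no protein-coding gene lies between CD3E and CD3D, and whether counting used strand was not stated.

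The co-receptors were scarce. CD8A, the alpha chain of the co-receptor of cytotoxic T cells, had 245, 288 and 116 counts in the ED16 libraries and 15, 1 and 6 in those of ED19, which gives a log2 fold change of 4.83 (SE 0.63) and 5.67 without ED19_4. CD4, the co-receptor of helper T cells, had 0.647, 1.13 and 0.571 RPKM at ED16 and 0.216, 0.299 and 0.301 RPKM at ED19, a log2 fold change of 1.56 (SE 0.40). CD5, which dampens antigen receptor signals and is also found on some B cells, had 48.8, 39.5 and 28.0 RPKM at ED16 and 16.2, 12.5 and 15.6 RPKM at ED19, a log2 fold change of 1.43 (SE 0.22). CD244, a receptor of NK cells, had 4.53, 4.74 and 3.16 RPKM at ED16 and 0.862, 0.726 and 0.958 RPKM at ED19, a log2 fold change of 2.32 (SE 0.26). The stages were apart in all 4 genes.

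CD2, an adhesion receptor of T and NK cells, was the exception. It had 1.94, 2.07 and 1.75 RPKM at ED16 and 3.85, 4.59 and 4.92 RPKM at ED19, a log2 fold change of -1.18 (SE 0.25). CD2 amounted to 0.0581, 0.0507 and 0.0833 of the CD3E level at ED16 and 0.739, 0.893 and 1.02 at ED19. It was also the member higher at ED19 in which ED19_6 was the highest library of its stage. In RefSeq GRCg7b CD2 has 1 protein-coding gene between it and CD101, which was higher at ED16.

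The T and NK antigens shared their lowest ED16 pool, and most other members higher at ED16 shared it too. ED16_3 was the lowest ED16 library in all 8 of them, beside 39.8% of all genes tested and 55.9% of genes called higher at ED16, and ED16_2 was the highest in 7 of the 8, beside 27.8% of all genes tested. ED16_3 was also the lowest in 23 of the 29 members higher at ED16, with 7 T and NK antigens among them. It was the lowest in 5 of 5 inhibitory ligands and receptors and in 7 of 10 tetraspanins. CD3D and CD2 varied little between the ED16 pools, with coefficients of variation of 4.93% and 5.76% after scaling. The 8 values of the T and NK antigens in a library come from the same pool and are not independent. A marker had a name only where the authors listed it, and 57.1% of the tested genes they listed were higher at ED16. Counts of named markers by direction are therefore no separate support. The T and NK marker list did not hold CD2, which was higher at ED19, or CD244, which was higher at ED16. Of 15 T and NK markers 11 were named in the files, all 11 higher at ED16, and 6 of them are members. The 5 others summed to 32.0, 38.7 and 17.4 RPKM at ED16 and to 5.67, 4.22 and 3.40 at ED19, again with ED16_3 the lowest of its stage. PRF1 had few counts at ED16 (32, 21 and 20) and was at 0 in ED19_5 and ED19_6. The part of T cells in the pools in these values was not tested.

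**Figure D3:**
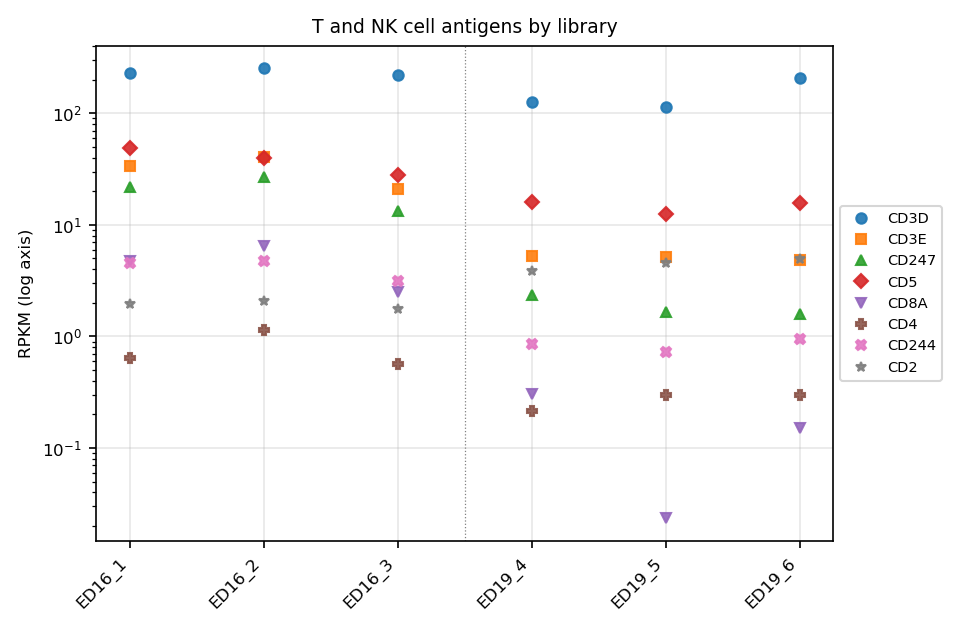
RPKM of the 8 T and NK cell antigens in each library on a log axis. CD3D, CD3E, CD247, CD5, CD8A, CD4 and CD244 are higher in every ED16 library than in any ED19 library, CD2 is the reverse, and ED16_3 is the lowest ED16 library for each gene.

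Among ligands and receptors that restrain immune cells, 4 of 5 were higher at ED16. CD300A, a receptor with inhibitory motifs in mammals, had 56.3, 55.4 and 44.5 RPKM at ED16 and 15.1, 14.0 and 18.0 RPKM at ED19, a log2 fold change of 1.76 (SE 0.19). RefSeq GRCg7b holds CD300A as a synonym of CD300LG, so its place and role here rest on the symbol of the files. CD200 and its receptor CD200R1, a pair that quiets myeloid cells in mammals, went opposite ways. CD200 had 7.72, 8.54 and 7.27 RPKM at ED16 and 17.0, 17.4 and 13.6 RPKM at ED19, a log2 fold change of -0.98 (SE 0.14). CD200R1 had 0.917, 1.41 and 0.549 RPKM at ED16 and 0.271, 0.160 and 0.329 RPKM at ED19, a log2 fold change of 1.94 (SE 0.45). The ligand was 8.41, 6.04 and 13.2 times the level of the receptor at ED16 and 62.9, 109 and 41.5 times at ED19. CD101, an inhibitory receptor of the immunoglobulin superfamily in humans, had a log2 fold change of 2.25 (SE 0.43), and CD276 (B7-H3) of 0.76 (SE 0.20). In all 5 genes ED16_3 was the lowest library of ED16.

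The antigens of progenitors, endothelium and stroma were low at both stages, and 2 had no count at ED19. THY1, known from thymocytes, neurons and fibroblasts, had 124, 65 and 66 counts in the ED16 libraries and 0, 0 and 0 in those of ED19, at least 26.4-fold higher at ED16 against a floor of 3 counts per library. CD34, the marker of blood progenitors and vascular endothelium, was at least 2.27-fold higher by the same floor. CD93, a lectin-like receptor of endothelium and early blood cells, had 1.67, 2.09 and 1.19 RPKM at ED16 and 0.128, 0.219 and 0.0156 RPKM at ED19, a log2 fold change of 3.80 (SE 0.56) that was 4.46 without ED19_5. That role rests on the symbol, since RefSeq GRCg7b holds CD93 as a synonym of CD248. CD36, a scavenger receptor, and CD109, a lipid-anchored protease inhibitor relative, were higher at ED19. CD36 had 0.375, 0.331 and 0.292 RPKM at ED16 and 1.51, 1.98 and 0.990 RPKM at ED19, a log2 fold change of -2.09 (SE 0.32). CD109 had 0.0399, 0.0383 and 0.0813 RPKM at ED16 and 0.280, 0.311 and 0.119 RPKM at ED19, a log2 fold change of -2.07 (SE 0.49). Endothelial markers (9 named of 10, CD34 included) summed to 8.57 to 10.6 RPKM at ED16 and 4.96 to 14.3 at ED19. Of the 7 endothelial markers that could be fitted, 6 were higher at ED16 and 1, PECAM1, was higher at ED19. Most of the ED19 sum was PECAM1, with means of 2.19 RPKM at ED16 and 8.48 at ED19 (log2 fold change -1.87, SE 0.39). Without this contrary marker, again a choice made after its values were seen, the 8 others summed to 7.04 to 7.92 at ED16 and 1.30 to 1.76 at ED19. Fibroblast markers (9 of 10) summed to 23.2 to 27.4 RPKM at ED16 and 4.39 to 6.30 at ED19. The endothelial markers KDR and VWF and the fibroblast marker PDGFRB were at 0 throughout ED19, but they had few counts at ED16 too. KDR had 29, 22 and 10 counts in the ED16 libraries, VWF 23, 24 and 18, and PDGFRB 8, 14 and 4. The part of endothelium and fibroblasts in these values was not tested.

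The tetraspanins formed the largest role, with 10 members, and they did not move as a family. Of the 9 that could be fitted, 6 were higher at ED16 and 3 at ED19. TSPAN1 and TSPAN8, known from epithelium in mammals, TSPAN13 and TSPAN15 had the widest differences. TSPAN8 had 536, 409 and 253 counts in the ED16 libraries and 26, 16 and 25 in those of ED19, which gives a log2 fold change of 4.07 (SE 0.36). TSPAN1 had 499, 199 and 166 counts in the ED16 libraries and 8, 9 and 19 in those of ED19, which gives a log2 fold change of 4.43 (SE 0.57), or 5.05 without ED19_6. ED16_1 held the most of both, and it was the highest ED16 library in 59.0% of all genes called higher at ED16. Epithelial markers summed to 303, 194 and 136 RPKM in ED16_1, ED16_2 and ED16_3, and kidney markers (8 named of 10, all higher at ED16) to 216, 87.4 and 71.3, with 0.229 to 0.400 at ED19 and AGXT and PIPOX at 0 in all 3 ED19 libraries. The part of these tissues in the tetraspanin values was not tested. TSPAN13 had a log2 fold change of 4.05 (SE 0.29), TSPAN15 of 2.48 (SE 0.38) and TSPAN6 of 0.90 (SE 0.20).

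The tetraspanins on the ED19 side were TSPAN14, TSPAN5 and TSPAN4. TSPAN14 had 6.59, 10.2 and 10.4 RPKM at ED16 and 35.7, 40.3 and 27.0 RPKM at ED19, a log2 fold change of -1.86 (SE 0.21). TSPAN5 had 3.06, 3.39 and 3.44 RPKM at ED16 and 8.61, 7.94 and 6.73 RPKM at ED19, a log2 fold change of -1.18 (SE 0.15). Both were clear of overlap. TSPAN4 had 7.78, 10.4 and 11.1 RPKM at ED16 and 26.9, 30.9 and 12.2 RPKM at ED19, with a log2 fold change of -1.18 (SE 0.29), and its ED19_6 value was just above ED16. TSPAN5, TSPAN14 and TSPAN15 belong in mammals to the subfamily that escorts the protease ADAM10 to the surface, and the lead of TSPAN14 over TSPAN15 was wider at ED19: TSPAN14 stood at 1.22, 1.92 and 4.30 times the TSPAN15 level at ED16 and at 54.7, 55.4 and 26.8 times at ED19. Counting listed genes by the InterPro tetraspanin annotation in place of the symbol added 4 genes, 3 higher at ED16 and 1 higher at ED19.

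**Figure D4:**
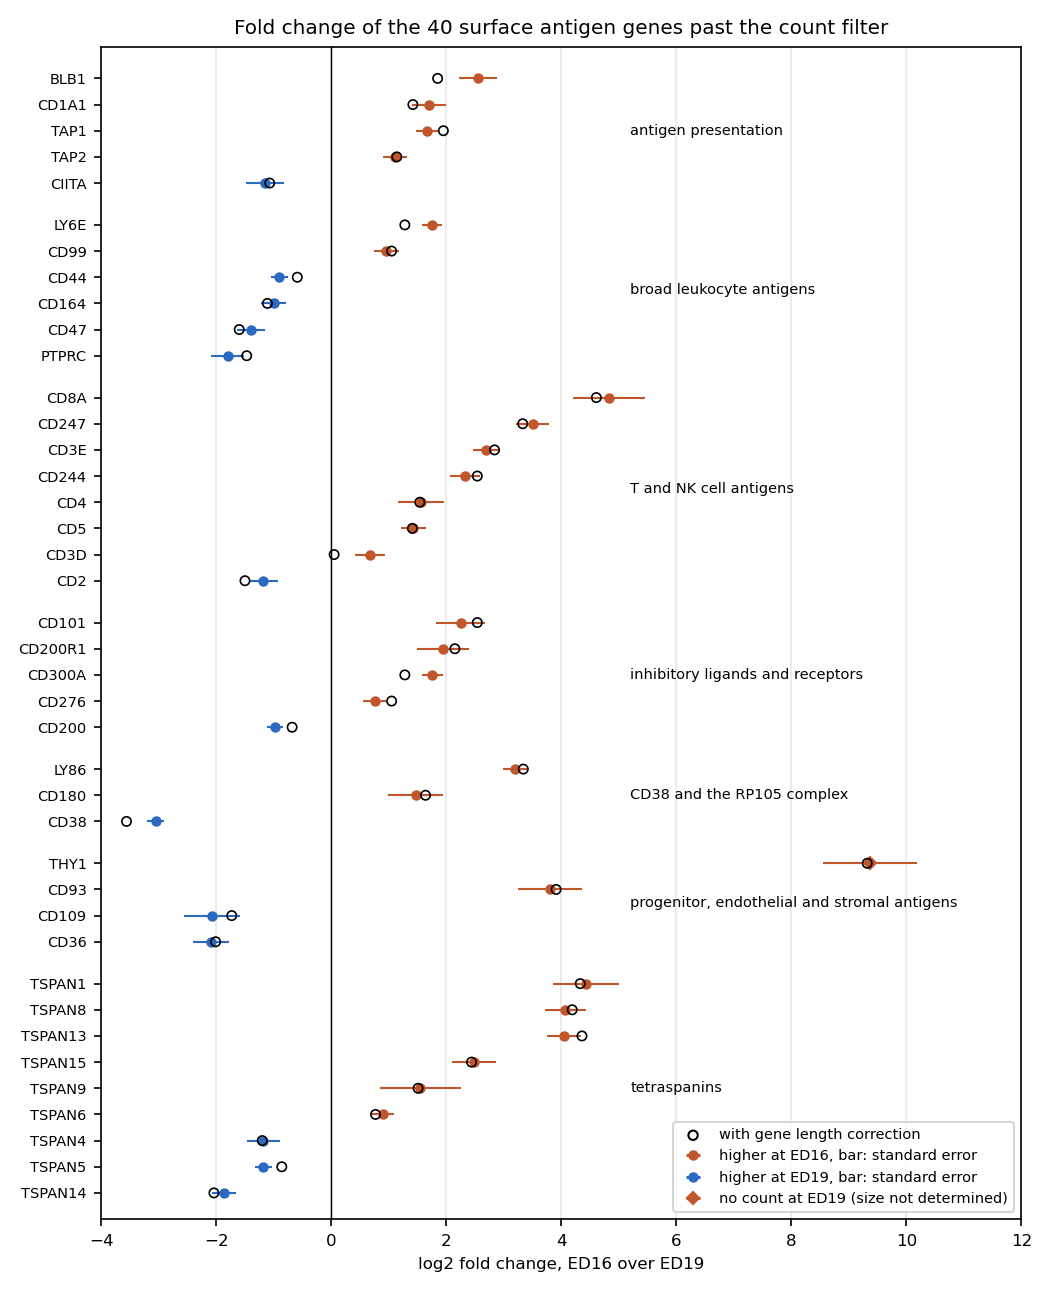
Log2 fold change of ED16 over ED19 for the 40 genes past the count filter, grouped by role, with bars of 1 standard error and open circles for the value after correction for gene length. Points to the right are higher at ED16, and CD3D moves from 0.67 to 0.05 with the correction. THY1 had no count at ED19, so the place of its diamond depends on the fit and gives no size.

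The libraries of ED19 differed from each other in members of either direction. Within ED19, ED19_6 was the lowest library in 11 of the 13 members higher at ED19 and the highest in 20 of the 29 higher at ED16, beside 62.1% and 46.3% of all genes called in those directions. Placing ED19_6 on a scale of log2 counts scaled for library size (log2 CPM) from the ED16 mean (0%) to the mean of ED19_4 and ED19_5 (100%), the 13 members had a median of 74.1%, beside 80.2% over all genes called higher at ED19. The 29 members higher at ED16 had a median of 74.6%, beside 92.6% over all genes called higher at ED16. The 13 members higher at ED19 were spread widely over that scale. CIITA lay at 18.1%, TSPAN4 at 30.2%, CD164 at 45.1% and PTPRC at 47.8%, while CD2 lay at 144%. CD44, TSPAN5, CD38 and CD200 were close to ED19_4 and ED19_5. So the members higher at ED19 held some in which ED19_6 stood between the stages and others in which it stood with its own.

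**Figure D5:**
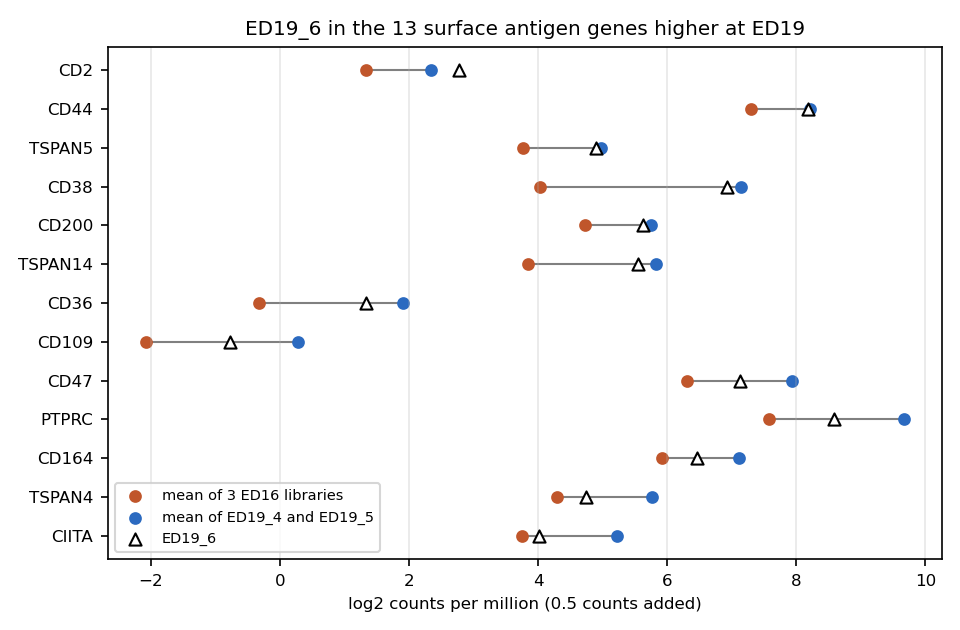
Log2 CPM, with 0.5 counts added, of the 13 genes higher at ED19, showing the mean of the 3 ED16 libraries, the mean of ED19_4 and ED19_5, and ED19_6 as a triangle. CIITA, TSPAN4, CD164 and PTPRC have their triangle nearer to ED16, and CD2 has it beyond the other ED19 libraries.

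The median spread between pools was somewhat wider in the group than in the transcriptome, without matching for level. The median coefficient of variation of scaled counts over the 40 genes was 18.0% at ED16 and 27.8% at ED19, beside 13.5% and 23.8% over all genes tested. The widest ED19 values belonged to members with few counts there, TSPAN9 (86.7%), CD8A (83.8%) and CD93 (83.6%). The part of low counts in the wider spread was not tested. The median length of the 40 genes past the filter was 2055 bases, beside 2063 over all genes tested. By length the 2 directions differed less than among all called genes. The 27 fitted members higher at ED16 had a median of 1968 bases and the 13 higher at ED19 of 2280, beside 1622 and 2883. In RefSeq GRCg7b, 37 of the 42 symbols were found as such, 4 as synonyms of another name (CD1A1 as CD1C, CD200R1 as CD200R1A, CD300A as CD300LG and CD93 as CD248), and TSPAN5 was not found, so the roles given for those 4 rest on the symbol of the files.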

How the data were processed

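RNA of bursal cells was measured in 3 libraries of ED16 and 3 of ED19, grouped by library title. The authors aligned clean reads to galGal4 with TopHat2 2.0.12 and deposited whole-number counts per gene made with HTSeq. The deposited RPKM values are those counts per kilobase of gene, scaled to a common library total. The remaining deposited table lists the genes the authors called with DESeq, with mean scaled read signal, fold changes and p-values per stage. Only its gene names and annotations were used. Whether counting used strand was not given in the sources used here.

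Counts were fitted with edgeR 4.0.16 (R 4.3.3; filterByExpr, TMM scaling, quasi-likelihood F test, Benjamini-Hochberg adjustment, threshold 0.05) on stage alone, over 13923 genes. Standard errors were derived from the F statistics. The fits were tested on simulated data, where edgeR stayed within the limit set for false calls. DESeq2, used as an alternative only, called more unchanged genes than edgeR and went over that limit in a single draw. The simulation changed only a small share of the genes, and no simulated library stood apart from its stage. It therefore does not bear on the number of genes called in these data. Alternatives were upper-quartile scaling, DESeq2 1.42.0, removal of the filter, a filter of at least 10 counts in each library, limma 3.58.1 on log2(RPKM + 1) and log2(RPKM + 0.1), a loess correction for gene length (span 0.5), and leaving out each library. RPKM values were used for levels between genes. Gene names were looked up in RefSeq GRCg7b, which was used for names and neighbours only.

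Members, roles, the antigen presentation list and the marker lists were chosen with earlier results of these data known. All members were named with a direction. Values per library were due for antigen presentation genes, PTPRC, genes known from B cells, the 5 largest differences in each direction at a mean log2 CPM of at least 3, and the 5 highest levels, and were added for further members by role after their values were seen. RNA integrity, GC content and the mapped share of reads differed between the stages in the study's quality control, and their part cannot be told apart from stage. Counts limit the precision of low genes, and each library is a pool, so the spread is between pools. Coordinates and sequences are not used here. A gene of the antigen presentation list that is counted in its totals is not reported here.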

Additional observations from a re-analysis of the deposited data

How the results depend on the processing

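The number of surface antigen genes higher at ED16, 27 of 40, was the same with upper-quartile scaling, DESeq2, both limma fits and the length correction, was 29 of 42 without a filter, 21 of 33 with at least 10 counts in every library, and 27 to 28 when each library was left out. No member with a value changed direction in any of these fits. Upper-quartile scaling moved the median over all genes tested from 0.05 to 0.26 on the log2 scale, and no filter moved it to 0.24. The calls over all genes, 4953 higher at ED16 and 4287 at ED19, were 5638 and 3446 with upper-quartile scaling and 3556 and 3649 with at least 10 counts in every library. Leaving out each library gave 7851 to 10949 called genes (4365 to 5793 higher at ED16, 3486 to 5156 higher at ED19) and 17 to 19 of the 19 antigen presentation genes, CALR being lost without ED16_1 or ED19_5 and MARCH1 without ED16_1, ED16_3 or ED19_5. With the length correction 18 of the 19 remained and CALR turned from 0.64 to -0.17 on the log2 scale. Of the members, 36 to 41 were past the threshold when each library was left out, those lost being CD3D (without any of ED16_1, ED16_2, ED16_3, ED19_4 and ED19_5), CD180 (without ED16_1, ED16_2 or ED19_5) and CIITA (without ED16_1), and 38 with the length correction, which lost CD3D. TSPAN9 was past the threshold without ED19_6 and in both limma fits, and in no other of these fits that held it. Over all genes, 7851 of 14111 tested were past it without ED16_1, 10949 of 14424 without ED19_6 and 9066 of 13923 with the length correction. The members and the 19 antigen presentation genes had a name through the authors' listing, so nothing is read from their counts. A pseudocount of 1 RPKM moved 17 member values by over 1.5 times and a pseudocount of 0.1 moved 5, as it shrinks low genes. The length correction moved BLB1 and CD3D by as much, which at 674 and 794 bases are the shortest of the 42. Among its smaller shifts, CD44 went from -0.90 to -0.59, CD200 from -0.98 to -0.68, LY6E from 1.75 to 1.28 and CD300A from 1.76 to 1.28. CD38, TAP1, CD2, CD276 and TSPAN13 became larger in size. The cause of the trend with length was not tested.

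Surface antigen genes named by a reference but not listed by the authors had no value, because the reference table used here links no gene identifiers of the files to symbols. No paired analysis was possible because the replicate numbers of ED16 (1 to 3) and ED19 (4 to 6) share none. With 3 pools a stage, the 9 members under 10 counts in a library (CD34, CD9, TSPAN9, THY1, TSPAN1, CD8A, CD93, CD180 and CD109) are limited by counting, and their fold changes carry little weight.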
